A study of Rattus norvegicus with 24 samples.

Results

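Motile cilia are the beating hairs of ependymal cells, which line the ventricles of the brain and move the cerebrospinal fluid. Each is built on an axoneme, a ring of microtubule doublets around a central pair, with rows of dynein motors that slide the doublets, radial spokes that reach towards the centre, and a nexin link that holds neighbouring doublets together. Foxj1 is the transcription factor that switches this gene programme on, together with factors of the RFX family, while several proteins named for cilia and flagella also act in the primary cilium of neurons and glia or away from cilia altogether.

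The genes described here are 79 of the 37403 genes in the deposited tables. They are the genes that meet a rule on symbols: 13 axonemal dynein heavy chains (Dnah), 45 cilia and flagella associated proteins (Cfap), 4 components of the nexin-dynein regulatory complex (Drc), 5 tektins (Tekt), 7 radial spoke head proteins (Rsph), and the 5 single genes Foxj1, Spag17, Tmem212, Enkur and Dynlrb2. The rule itself uses no measured value. RNA-seq had been made from bilateral tissue punches of the nucleus accumbens (NAC), a ventral striatal region beside the lateral ventricle, and of the ventral tegmental area (VTA), the midbrain region that holds dopamine neurons. All rats were adult F1 offspring, at least 60 days old, labelled male, and themselves not described as treated. The SAL-sired groups had fathers that self-administered saline for 60 days, and the MOR-sired groups had fathers that self-administered morphine for 60 days. NAC was sequenced in 14 offspring samples, 7 from each kind of father, and VTA in 10, 5 from each. Every library is labelled a biological replicate, with no animal or litter named, so the p-values measure the spread between these samples, and offspring of 1 sire may be among them.

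Library totals were 21.9 to 41.3 M estimated counts in NAC and 23.6 to 43.5 M in VTA. Levels are given as CPM, each gene's share of a library's estimated counts scaled to one common total. The counts had already been divided by transcript length, so CPM can be compared between genes. The region labels fitted the dopamine neuron markers, 8 of which summed to 3493 to 7801 CPM in VTA and to 35.3 to 111 CPM in NAC. Striatal neuron markers, 8 genes, summed to 450 to 7009 CPM among the NAC libraries, lowest in MOR-sired NAC 2 and highest in MOR-sired NAC 4. In VTA they summed to 217 to 322 CPM. Some NAC punches thus lay not far above VTA, with MOR-sired NAC 3 and 7 at 680 and 693 CPM. In 4 VTA libraries (SAL-sired VTA 5 and MOR-sired VTA 3, 4 and 5) Xist, the RNA of the inactive X chromosome of females, stood at 78.9 to 108 CPM, against at most 0.253 CPM in every other library, which goes against the label male. VTA results are therefore also given without those 4 libraries where that changes them. Region, table and the range of library numbers cannot be told apart.

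Most of the 79 genes were rare in both regions. In NAC 34 genes had a mean under 1 CPM, 33 lay from 1 to 10 CPM and 12 were at 10 CPM or more. In VTA the same classes held 35, 35 and 9 genes. The median of the 79 mean levels was 1.67 CPM over the NAC libraries and 1.24 CPM over the VTA libraries. The 7 most abundant genes carried 71.0% of the summed CPM of all 79 in NAC and 72.1% in VTA. In both regions these included Cfap36, which binds the small GTPase Arl3, Cfap20, a protein of the inner junction of the doublets, Cfap298, a factor of dynein arm assembly, Cfap418 and Cfap410, both of which are linked to photoreceptor disease, and Cfap90. Enkur, an adaptor that lies inside the doublets, was the seventh in NAC and Cfap126, another protein of the doublet lumen, was the seventh in VTA. The dynein heavy chains, which are found only in motile axonemes, lay far below them in both regions.

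**Figure D1:**
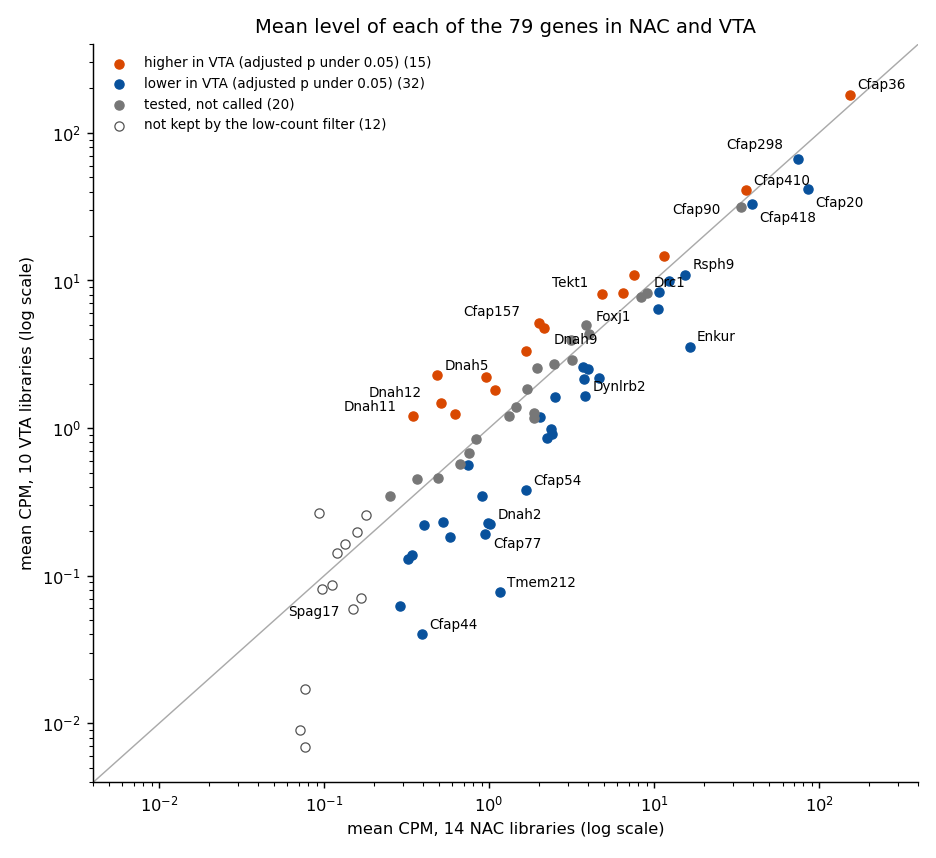
Mean CPM of each of the 79 genes over the 14 NAC libraries (horizontal, log scale) and over the 10 VTA libraries (vertical, log scale), coloured by the test between regions; open points were not kept by the low-count filter. The 15 genes higher in VTA lie above the diagonal, the 32 lower ones lie below it, and Cfap36 is the most abundant gene on both axes.

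The summed level of the 79 genes was 591 to 650 CPM in SAL-sired NAC (621 ± 22.1, SD, n = 7), 591 to 688 CPM in MOR-sired NAC (621 ± 32.7, SD, n = 7), 575 to 608 CPM in SAL-sired VTA (594 ± 15.3, SD, n = 5) and 484 to 603 CPM in MOR-sired VTA (544 ± 42.7, SD, n = 5). The 4 groups overlapped, and the widest spread was in MOR-sired VTA. In bulk punches, fewer cells of a type and less RNA per cell cannot be told apart.

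Foxj1 itself was present in every library. Its level in SAL-sired NAC was 2.65 to 4.90 CPM with a median of 3.73, and in MOR-sired NAC it was 1.80 to 5.47 CPM with a median of 4.03. In SAL-sired VTA the 5 libraries had 5.72, 5.15, 5.59, 3.97 and 5.73 CPM, and in MOR-sired VTA they had 3.33, 3.19, 4.20, 5.72 and 7.61 CPM. All 4 groups overlapped, and the lowest and the highest VTA values both came from MOR-sired offspring. The mean was 3.87 ± 0.996 CPM in NAC (SD, n = 14) and 5.02 ± 1.35 CPM in VTA (SD, n = 10).

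Tmem212, a membrane protein of ependymal cells, was lower in VTA than in NAC by the test given below. In NAC it ranged from 0 to 3.61 CPM with a median of 0.812 CPM, and the lowest library was MOR-sired NAC 4, which was also the lowest for Foxj1. In VTA it was at 0.159, 0, 0, 0.219 and 0.234 CPM in the SAL-sired libraries and at 0, 0, 0, 0 and 0.161 CPM in the MOR-sired libraries, so that 6 of 10 VTA libraries had none. Spag17, a large protein of the central pair, was at 0.0608 to 0.251 CPM in NAC and at 0.0196 to 0.113 CPM in VTA and was not kept by the low-count filter in either region. Dynlrb2, a light chain found in cytoplasmic and axonemal dyneins, was at 1.72 to 6.06 CPM in NAC and at 1.10 to 2.41 CPM in VTA.

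Other markers of ependymal cells gave a mixed picture beside these levels. Of a list of 9 multiciliated cell markers, 8 were in the tables, and their sum was 116 to 184 CPM in NAC and 132 to 187 CPM in VTA, carried mostly by Pltp and Rarres2, which other brain cells express too. Sntn, a protein of the ciliary tip, was at 0 in every VTA library and had a mean of 0.0212 CPM in NAC. Choroid plexus markers, 12 genes of the other ciliated epithelium of the ventricles, summed to 88.2 to 969 CPM in NAC, where Ttr stood at 783 and 828 CPM in SAL-sired NAC 6 and 7, and to 256 to 365 CPM in VTA. The part of these cell types in the results below was not tested.

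The low-count filter used for testing kept 60 of the 79 genes in NAC and 57 in VTA. Of these 53 were kept in both regions, 15 genes were kept in neither, and 67 were kept in the fit over all 24 libraries. The genes left out of that last fit were Dnah3, Dnah6, Dnah7, Dnah8, Dnah14, Spag17, Cfap47, Cfap58, Cfap68, Cfap107, Cfap206 and Cfap221, so 5 of the 13 dynein heavy chains were too low to test between regions.

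The regions differed for most of the genes tested, and they did so in both directions. Of 67 genes, 15 were higher in VTA (22.4%), 32 were lower in VTA (47.8%) and 20 passed the test in neither direction (edgeR quasi-likelihood test, Benjamini-Hochberg adjusted p under 0.05 over all genes tested). Over all 20603 genes tested, 34.3 percent were higher and 34.7 percent lower in VTA, 69.0 percent in all. The share of the cilia genes that passed is thus near the background. Their split leaned to the lower side, in a set shaped by the low-count filter. Cfap77, Cfap161, Dnah2, Dnah17, Drc7, Rsph4a and Tmem212 were kept in NAC but not in VTA, and all were lower in VTA. Cfap44, Cfap65, Cfap73 and Tekt3 were kept in neither region's own fit and were lower too. Of the genes kept in VTA but not in NAC, Dnah11 was higher, Dnah1 and Dnah10 did not pass and Cfap68 was not tested. The split itself was not tested. The median log2 fold change of the 67 genes was -0.26, and that of all genes tested was 0.02. Scaling by upper quartiles in place of TMM factors (the default scaling of edgeR) raised the median of all genes by 0.12 on the log2 scale, took the share of all calls that were higher from 49.7% to 60.3%, and gave 20 higher and 29 lower cilia genes.

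**Figure D2:**
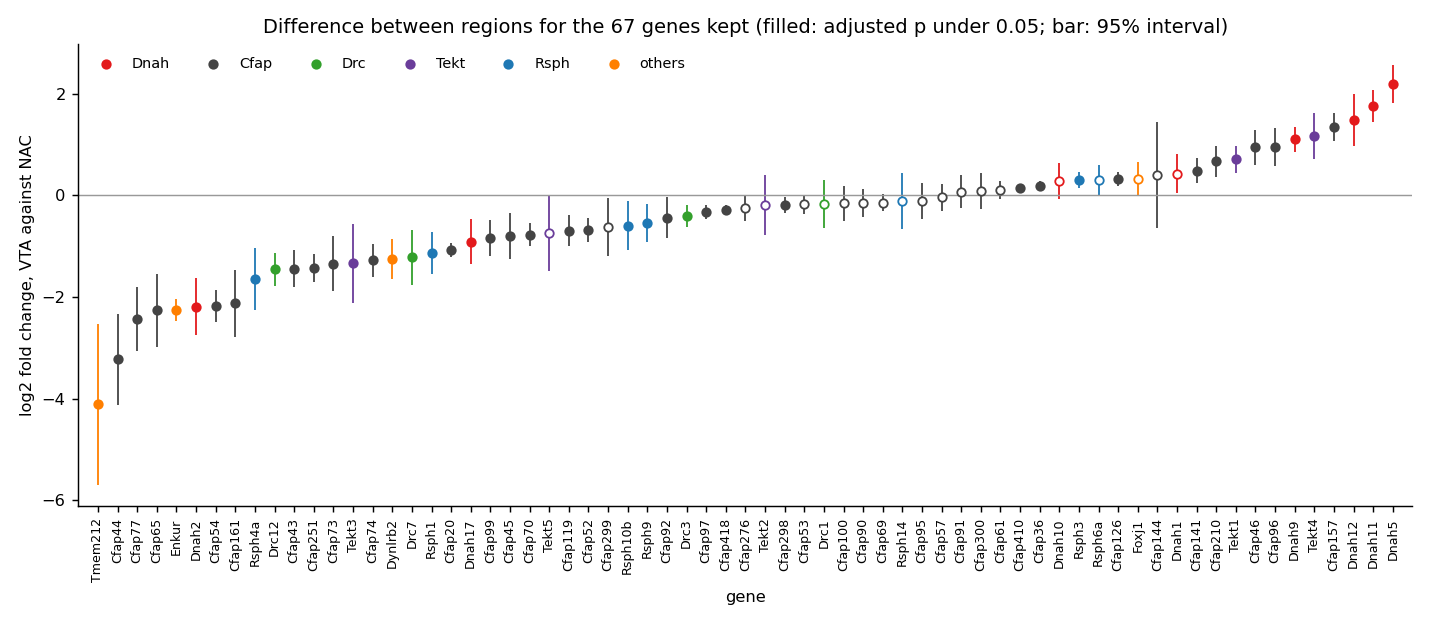
Log2 fold change of VTA against NAC for the 67 genes kept, in ascending order and coloured by gene family, with 95% intervals; filled points passed at adjusted p under 0.05. The largest negative values belong to Tmem212 (-4.11) and Cfap44 (-3.22), and the largest positive ones to Dnah5 (2.19) and Dnah11 (1.76).

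The dynein heavy chains, the motors of the axoneme, stood on both sides, with the larger number higher in VTA. Of 8 tested, Dnah5, Dnah9, Dnah11 and Dnah12 were higher in VTA, Dnah2 and Dnah17 were lower, and Dnah1 and Dnah10 did not pass. Dnah5, Dnah9 and Dnah11 encode outer arm heavy chains, and so does Dnah17, best known from sperm, while Dnah2 and Dnah12 encode inner arm heavy chains. Both directions are therefore found among outer and among inner arm genes.

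Dnah5 was at 0.272 to 0.815 CPM in NAC, with a median of 0.451 CPM over 14 libraries. In VTA it was at 2.34, 2.77, 2.49, 1.32 and 1.94 CPM in SAL-sired offspring and at 2.69, 2.61, 2.01, 2.28 and 2.42 CPM in MOR-sired offspring. Every VTA library lay above every NAC library. The level was 4.58-fold higher in VTA (95% interval 3.54 to 5.93; log2 fold change 2.19, SE 0.18, edgeR adjusted p = 2.11e-10).

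Dnah11 ran from 0.158 to 0.529 CPM in NAC and from 0.945 to 1.63 CPM in VTA, a 3.39-fold difference (95% interval 2.72 to 4.22; edgeR adjusted p = 6.34e-10). Dnah9, the most abundant heavy chain in both regions, ran from 1.44 to 2.98 CPM in NAC and from 3.42 to 6.78 CPM in VTA, a 2.15-fold difference (95% interval 1.81 to 2.55; edgeR adjusted p = 2.44e-08). For these genes, as for Dnah5, the libraries of the regions did not overlap. Dnah12 ran from 0.159 to 0.802 CPM in NAC and from 0.473 to 2.56 CPM in VTA with some overlap, and was 2.78-fold higher in VTA (95% interval 1.95 to 3.97; edgeR adjusted p = 1.43e-05).

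Dnah2 went the other way without overlap. It ran from 0.403 to 2.66 CPM in NAC and from 0.106 to 0.319 CPM in VTA, and was 4.56-fold lower in VTA (95% interval 3.08 to 6.74; edgeR adjusted p = 2.04e-07). As a result the order of the heavy chains differed: by mean CPM it began Dnah9, Dnah2, Dnah12, Dnah5, Dnah17 in NAC and Dnah9, Dnah5, Dnah12, Dnah11, Dnah10 in VTA. In NAC the means of Dnah12 and Dnah5, 0.509 ± 0.163 and 0.484 ± 0.173 CPM (SD, n = 14), lie within each other's spread.

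**Figure D3:**
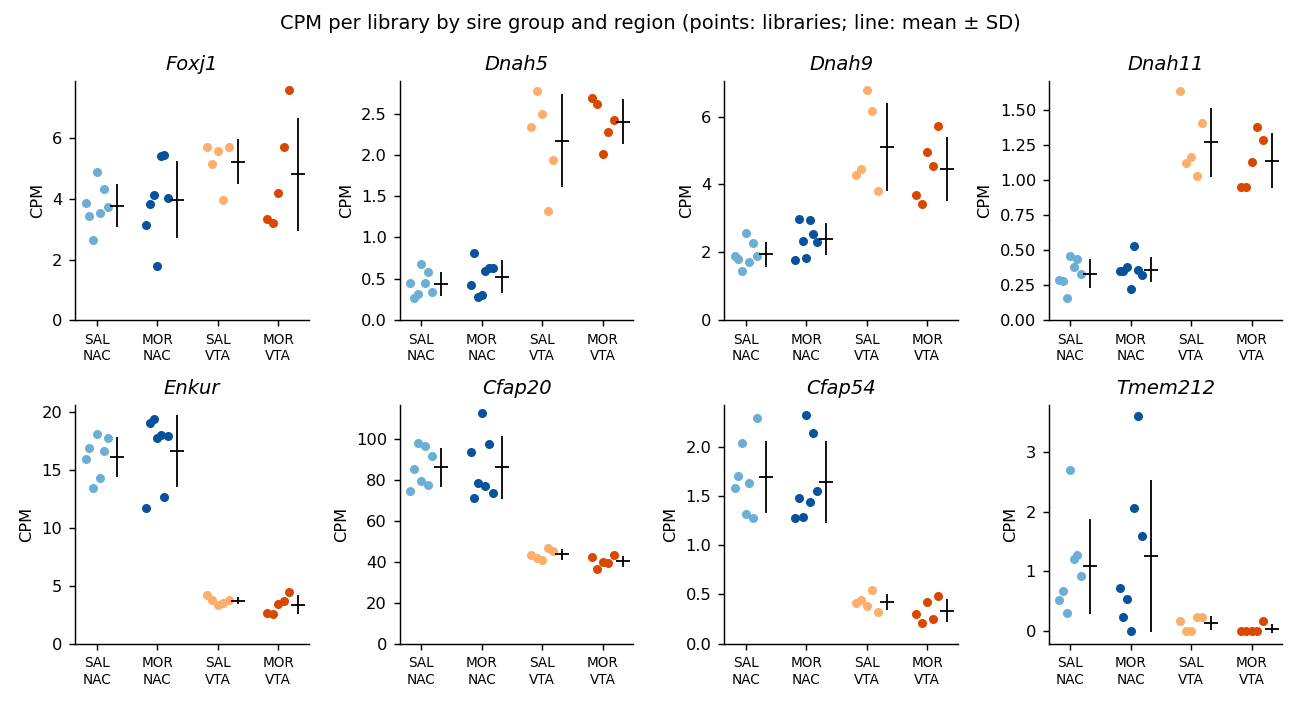
CPM of 8 genes in every library (points) with mean ± SD (lines) for SAL-sired NAC (n = 7), MOR-sired NAC (n = 7), SAL-sired VTA (n = 5) and MOR-sired VTA (n = 5). Dnah5, Dnah9 and Dnah11 are higher in every VTA library than in any NAC library, Enkur, Cfap20 and Cfap54 are lower in every VTA library, and Foxj1 overlaps between regions.

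Enkur showed the clearest difference among the genes that were lower in VTA. It was at 11.7 to 19.4 CPM in NAC, with a median of 17.3 CPM, and in VTA at 4.21, 3.78, 3.32, 3.54 and 3.80 CPM in SAL-sired offspring and at 2.65, 2.60, 3.41, 3.70 and 4.51 CPM in MOR-sired offspring. No VTA library came near the lowest NAC library. The level was 4.76-fold lower in VTA (95% interval 4.11 to 5.51; log2 fold change -2.25, SE 0.10, edgeR adjusted p = 5.95e-15).

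Among the other single genes, Dynlrb2 was 2.38-fold lower in VTA (95% interval 1.81 to 3.14; edgeR adjusted p = 4.54e-06) and Tmem212 was 17.3-fold lower (95% interval 5.78 to 51.7; edgeR adjusted p = 5.04e-05), the latter with a wide interval and with 6 VTA libraries at 0. For Tmem212, VTA against NAC, leaving out 1 library moved the log2 fold change of -4.11 to between -5.68 (without MOR-sired VTA 5) and -3.84, and without the 4 libraries with Xist it was -5.84. The SAL-sired libraries alone gave -3.16 and the MOR-sired ones -5.06, and the call held in each of these. Foxj1, by contrast, had a log2 fold change of 0.33 (SE 0.16, edgeR adjusted p = 0.0747), with an interval from 0.996-fold to 1.58-fold. Dynlrb2 and Tmem212 were thus lower in VTA, while the difference of Foxj1 did not pass. Whether Foxj1 differs from them in this was not tested.

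Among the 39 Cfap genes tested, 8 were higher and 19 lower in VTA. Cfap20 was at 71.1 to 113 CPM in NAC and 36.3 to 47.0 CPM in VTA, 2.10-fold lower without overlap (95% interval 1.91 to 2.32; edgeR adjusted p = 2.54e-12). Cfap54 and Cfap74 belong to a projection of the central pair: Cfap54 ran from 1.28 to 2.32 CPM in NAC and from 0.207 to 0.550 CPM in VTA, a 4.52-fold lower level (95% interval 3.65 to 5.6; edgeR adjusted p = 8.92e-12). Cfap74 was 2.42-fold lower (95% interval 1.93 to 3.03; edgeR adjusted p = 1.67e-07), and Cfap46, of the same projection, was 1.92-fold higher (95% interval 1.52 to 2.44; edgeR adjusted p = 2.65e-05). Genes of 1 structure thus stood on opposite sides.

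Cfap44, part of the complex that tethers inner arm dynein heads, had a mean of 0.391 ± 0.233 CPM in NAC (SD, n = 14) and 0.04 ± 0.0154 CPM in VTA (SD, n = 10), which is 9.34-fold lower with a 95% interval of 5.04 to 17.3. Cfap77 was 5.39-fold lower (95% interval 3.47 to 8.37), and Cfap251, a protein at the base of the radial spokes, was 2.69-fold lower without overlap (95% interval 2.22 to 3.26). On the other side Cfap157, known from sperm, was at 1.30 to 3.01 CPM in NAC and 3.93 to 7.57 CPM in VTA, 2.55-fold higher (95% interval 2.11 to 3.08; edgeR adjusted p = 4.83e-09). Cfap36 was 1.14-fold higher in VTA (95% interval 1.07 to 1.22), and Cfap298 was 1.14-fold lower (95% interval 1.02 to 1.27; edgeR adjusted p = 0.0294), a call that was lost in several alternatives.

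The proteins of the doublet lumen named here, which stiffen the microtubules from inside, were split. Cfap126, Cfap141 and Cfap210 were higher in VTA, Cfap141 by 1.40-fold (95% interval 1.18 to 1.66). Cfap45, Cfap52 and Cfap161 were lower, Cfap45 by 1.74-fold (95% interval 1.28 to 2.37) and Cfap161 by 4.36-fold (95% interval 2.75 to 6.89). Enkur, described above, also lies inside the doublets and was lower too. Cfap276 did not pass (edgeR adjusted p = 0.0806), with 0.667 ± 0.137 CPM in NAC (SD, n = 14) and 0.576 ± 0.100 CPM in VTA (SD, n = 10).

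The tektins, filament proteins of the doublets, were 2 higher (Tekt1, Tekt4) and 1 lower (Tekt3) of 5. Tekt1 was 4.84 ± 1.34 CPM in NAC (SD, n = 14) and 8.08 ± 1.21 CPM in VTA (SD, n = 10), 1.63-fold higher (95% interval 1.35 to 1.97). Of the nexin link genes, 3 of 4 were lower (Drc3, Drc7 and Drc12, the last by 2.73-fold with a 95% interval of 2.18 to 3.42), and Drc1 did not pass, at 2.68 to 16.2 CPM in NAC and 5.94 to 10.9 CPM in VTA. Of 7 radial spoke genes, Rsph3 was higher by 1.23-fold (95% interval 1.11 to 1.37), Rsph1, Rsph4a, Rsph9 and Rsph10b were lower, and Rsph4a, a spoke head gene of motile cilia, differed most among them, by 3.13-fold (95% interval 2.05 to 4.79).

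Few of the genes separated the regions in every library. NAC lay wholly above VTA for 5 of the 67 genes (7.46%: Cfap20, Cfap54, Cfap251, Dnah2 and Enkur), against 12.8 percent of all genes tested. VTA lay wholly above NAC for 5 genes (7.46%: Cfap46, Cfap157, Dnah5, Dnah9 and Dnah11), against 12.3 percent of all genes tested. Both shares were below the background. Other cell type markers moved with region at the same time: 10 subventricular progenitor and neuroblast markers summed to 82.2 to 234 CPM in NAC and 20.05 to 43.0 CPM in VTA, 10 astrocyte markers to 3650 to 4283 and 5839 to 7031 CPM, and 8 oligodendrocyte markers to 8539 to 12205 and 24645 to 35947 CPM. Their part in the difference between regions was not tested.

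Genes of the same pathways that lie outside the 79 were also divided, and the shares that passed in each list (60.0% to 80.0%) lay around the 69.0 percent of all genes. Among 28 genes tested for dynein arm intermediate and light chains, docking and assembly, 5 were higher and 12 lower in VTA, and Dnaaf11, an assembly factor, fell by 2.52 on the log2 scale (edgeR adjusted p = 1.08e-12). Among 43 further central pair and axoneme genes 11 were higher and 20 lower. Among 10 genes of the transcription programme upstream of motile cilia, 1 was higher and 5 were lower. The higher one was Rfx4, at 7.74 ± 0.672 CPM in NAC (SD, n = 14) and 12.3 ± 1.80 CPM in VTA (SD, n = 10), and the lower ones included Gmnc and Myb, which act early in multiciliated cells. Genes of cilia in general gave 9 higher and 15 lower of 30 for intraflagellar transport and 9 higher and 13 lower of 31 for the primary cilium and BBSome.

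The promoters of the genes were read for the X-box, the paired site bound by RFX factors, because these factors act beside Foxj1. RefSeq promoters, 300 bases from 250 before to 50 after each annotated start in build GRCr8, were found for 66 of the 79 genes, with 114 starts. The motifs were searched on both strands, and their letters were chosen after some of these promoters had been viewed. The sites below are shown because their genes include ones that were higher in VTA (Dnah9, Dnah12, Tekt1, Tekt4), ones that were lower (Dnah2, Cfap20, Cfap45, Cfap298, Dynlrb2) and 1 that did not pass (Cfap90). Each is written 5′ to 3′ on the strand of the gene, with the X-box match in capitals.
Dnah2: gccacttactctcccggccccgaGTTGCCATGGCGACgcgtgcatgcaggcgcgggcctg
Dnah9: gcatctccGTCGCTAGGGAAACggacgctg
Dnah12: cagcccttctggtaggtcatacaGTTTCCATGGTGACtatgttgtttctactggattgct
Tekt1: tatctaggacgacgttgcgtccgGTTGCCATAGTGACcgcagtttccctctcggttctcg
Tekt4: tatacaatGTTCCTGAGGCAACcaggagcc
Dynlrb2: cctgcctgGTTTCCTAGCAACagggaagc
Cfap20: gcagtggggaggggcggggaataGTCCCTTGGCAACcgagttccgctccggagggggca
Cfap45: gggtcttgGTTGCTGTGGTAACgcgtcagc
Cfap90: aaggcgcaGTTGCTAGGCAACgaccgagc
Cfap298: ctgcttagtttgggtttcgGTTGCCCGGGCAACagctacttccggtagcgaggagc

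In GRCr8 these windows lie at chr10:54766035-54766094 on the minus strand (Dnah2), chr10:51363933-51363962 on the minus strand (Dnah9), chr16:1944667-1944726 on the plus strand (Dnah12), chr10:57479124-57479183 on the minus strand (Tekt1) and chr10:14992263-14992292 on the plus strand (Tekt4). The others lie at chr19:61429042-61429070 on the plus strand (Dynlrb2), chr19:9614797-9614855 on the plus strand (Cfap20), chr13:87521810-87521839 on the plus strand (Cfap45), chr1:36678317-36678345 on the minus strand (Cfap90) and chr11:43677577-43677632 on the minus strand (Cfap298). Counted from the first base of the annotated transcript as 0, the matches begin at -45 in Dnah2, -62 in Dnah12, -39 in Tekt1, -30 in Dynlrb2 and -34 in Cfap90. They begin at -13 in Tekt4 and in Cfap45, at 9 in Dnah9, at -158 in Cfap20 and at -231 in Cfap298. Most of them thus lie shortly before the start, and that of Dnah9 lies just after it.

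The X-box was searched as GTTNCC followed by GNNAC. The form with 3 bases between these arms was in 19 of the 114 promoters (16.7%) and in 2.07% of all 33469 promoters of the same length. The form with 2 bases between them was in 9 (7.89%) against 1.42% of all. The single arm GTTGCC, which is contained in some full matches, was in 36 (31.6%) against 12.2%, and the forkhead motif TGTTTAC was in 6 (5.26%) against 3.78%. By gene, 22 of 66 (33.3%) had either X-box form, against 3.72% of the 27457 genes for which a promoter was found. A gene was counted if any of its starts had a match. The 66 genes had 114 starts and the 27457 genes had 33469, so the 66 had more starts per gene. These are matches of letters, not sites shown to be bound.

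Genes with an X-box match stood on both sides of the regional difference. Of the 20 tested genes with a match, 6 were higher in VTA (Cfap96, Cfap141, Dnah9, Dnah12, Tekt1, Tekt4), 8 were lower and 6 did not pass. Of the 36 tested genes whose promoter held no match, 7 were higher, 18 were lower and 11 did not pass. The difference between these splits was not tested.

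For the sires, the comparison the study was designed for, none of the cilia and axoneme genes passed the test between MOR-sired and SAL-sired offspring. In NAC 0 of 60 passed at an adjusted p under 0.05 in the edgeR quasi-likelihood test, and over all 18220 genes 0.0 percent passed. In VTA 0 of 57 passed, and over all 19923 genes 0.0 percent passed. DESeq2 also called 0 of them in either region, and so did limma-voom with quality weights. At an unadjusted p under 0.05 there were 4 of 60 in NAC (3 higher and 1 lower in MOR-sired offspring), against 6.18 percent of all genes (4.39 percent higher, 1.79 percent lower). There were 3 of 57 in VTA (1 higher, 2 lower), against 5.31 percent of all genes (2.75 percent higher, 2.56 percent lower). Both shares are near the background. The sire groups were not alike in other respects. Striatal neuron markers summed to 1379 to 5147 CPM in SAL-sired NAC and to 450 to 7009 CPM in MOR-sired NAC. In VTA the libraries with Xist were 1 of 5 SAL-sired and 3 of 5 MOR-sired. The part of these differences in the sire results was not tested.

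The fitted sire differences were small. In NAC the log2 fold changes ran from -0.68 (Cfap161) to 0.59 (Cfap74), and 57 of 60 lay within 0.5 of 0. In VTA they ran from -0.53 (Drc12) to 0.32 (Dnah1), and 56 of 57 lay within 0.5 of 0. The medians were -0.01 in NAC and -0.06 in VTA, beside medians over all genes of -0.0011 and -0.0065. Foxj1 had 0.06 (SE 0.21) in NAC and -0.05 (SE 0.22) in VTA, where neither value exceeded its error.

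Cfap74, of the central pair, had the smallest sire p among these genes in NAC. Its SAL-sired libraries had 1.53 to 2.31 CPM with a median of 1.96, and its MOR-sired libraries had 1.99 to 3.63 CPM with a median of 2.92. The 2 lowest MOR-sired libraries fell inside the SAL-sired range, and the other 5 lay above it. The log2 fold change was 0.59 (SE 0.15, edgeR adjusted p = 0.56), and with library number as a covariate it was 0.50. In VTA the 5 SAL-sired libraries had 0.770, 0.885, 1.33, 1.44 and 0.961 CPM and the MOR-sired ones had 0.662, 0.919, 0.651, 0.686 and 1.53 CPM, which overlap.

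In NAC the other genes under an unadjusted p of 0.05 were Cfap69 with a log2 fold change of 0.32 (edgeR adjusted p = 0.627), Cfap157 with 0.49 (edgeR adjusted p = 0.65) and Cfap410 with -0.10 (edgeR adjusted p = 0.745). In VTA they were Cfap410 with 0.20 (edgeR adjusted p = 0.793), Drc12 with -0.53 (edgeR adjusted p = 0.886) and Rsph10b with -0.50 (edgeR adjusted p = 0.917). None of them passed. All 5 dynein heavy chains tested in NAC had positive fold changes, with a median of 0.27, and 6 of 7 radial spoke genes had negative ones. Over all genes tested in NAC, 9024 of 18220 had positive ones. In VTA 2 of 6 dynein heavy chains had positive ones, with a median of -0.035, and 5 of 6 radial spoke genes had negative ones. No gene of either family was called.

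Cfap410, a protein of the cilium base also found in photoreceptors, was on both of those lists, with opposite signs. In SAL-sired NAC it was at 39.8, 38.1, 37.2, 37.6, 38.1, 35.1 and 35.9 CPM, and in MOR-sired NAC at 36.0, 34.8, 37.0, 32.9, 35.6, 34.2 and 35.7 CPM. In SAL-sired VTA it was at 41.4, 41.5, 36.3, 38.9 and 38.6 CPM, and in MOR-sired VTA at 45.5, 37.5, 45.4, 40.9 and 44.5 CPM. The sire groups overlapped in both regions, with the MOR-sired libraries tending low in NAC and high in VTA. The group means were 37.4 ± 1.53 and 35.2 ± 1.34 CPM in NAC (SD, n = 7 each) and 39.3 ± 2.18 and 42.7 ± 3.50 CPM in VTA (SD, n = 5 each).

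The difference of the sire effects, VTA minus NAC, was tested in the fit over all 24 libraries. It was called for 0 of 67 cilia genes by edgeR, and for 0.0 percent of all 20603 genes. At an unadjusted p under 0.05 there were 6 of 67, against 4.78 percent of all genes. Cfap410 had the smallest p, with a difference of 0.32 on the log2 scale (SE 0.07, edgeR adjusted p = 0.464). DESeq2 gave 0.32 with an adjusted p of 0.00722 and called it, 1 of the 67 genes, among 93 genes in all. Without the 4 VTA libraries with Xist the edgeR difference was 0.33 with an adjusted p of 0.349. Its regional difference followed: MOR-sired libraries alone gave a log2 fold change of VTA against NAC of 0.30 and SAL-sired libraries alone gave -0.02, beside 0.14 over both (edgeR adjusted p = 0.000693).

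**Figure D4:**
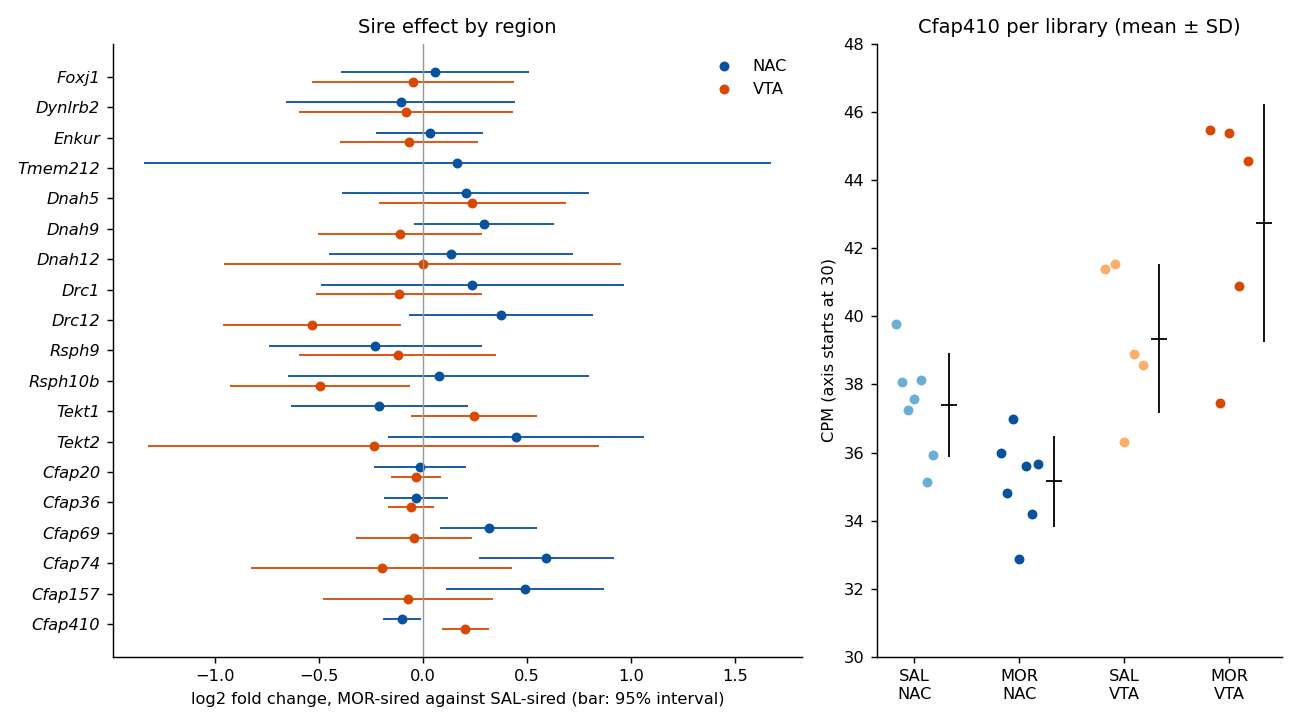
Left, log2 fold change of MOR-sired against SAL-sired offspring with 95% intervals for 19 genes in NAC and VTA; right, CPM of Cfap410 in every library with mean ± SD, on an axis that starts at 30. No gene on the left passed after adjustment, and Cfap410 has group means of 37.4, 35.2, 39.3 and 42.7 CPM from left to right.

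Because Foxj1 drives the motile programme, its level was set against that of every other gene across the libraries of each region. In NAC 0 of 59 cilia genes passed (permutation test, 100000 permutations, adjusted p under 0.05 over 18219 genes), and 0.0 percent of all genes passed. The coefficients nevertheless leaned upward: r was above 0 for 39 of 59 (66.1%), with a median of 0.24 against 0.0057 over all genes. At an unadjusted p under 0.05, 22 of 59 had r above 0 (37.3%, against 14.3 percent of all genes) and 5 had r below 0 (8.47%, against 12.4 percent). The count rested on 1 library: without MOR-sired NAC 6, 17 cilia genes passed after adjustment with r above 0 and 3 with r below 0, while 20.8 percent of all genes passed (11.1 percent above 0, 9.73 percent below 0).

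Among the cilia genes tested in NAC, the highest r with Foxj1 was that of Tmem212, with r = 0.887 and rho = 0.749 over 14 libraries (permutation p = 8e-05, adjusted p = 0.0797). When the libraries with the most extreme Foxj1, SAL-sired NAC 3 and MOR-sired NAC 4, were left out, r was 0.718, and within library numbers 1 to 8 and 9 to 14 it was 0.583 and 0.987. Cfap46 had r = 0.784 and rho = 0.855 (0.664 without those libraries, and 0.907 and 0.776 within the library number ranges). Dnah9 had r = 0.701 and rho = 0.780 (0.746 without them, and 0.783 and 0.833 within the ranges). Cfap45 (r = 0.823), Cfap299 (r = 0.765) and Rsph6a (r = 0.764) fell to 0.254, 0.0642 and 0.119 without those 2 libraries, so their relation rests on them.

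The 3 lowest coefficients in NAC belonged to genes at the abundant end. Cfap97 had r = -0.839 and rho = -0.802 (-0.722 without the 2 farthest libraries). Cfap36 had r = -0.722 and Cfap20 had r = -0.629, which became -0.451 and -0.202 without them. Over all 14 NAC libraries Enkur and Dynlrb2 had r = 0.132 and r = 0.188. Within the SAL-sired libraries they had 0.793 and 0.536, and within the MOR-sired ones -0.0468 and 0.0218. Within library numbers 1 to 8 and 9 to 14 Enkur had 0.745 and -0.349, and Dynlrb2 had 0.196 and 0.367.

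**Figure D5:**
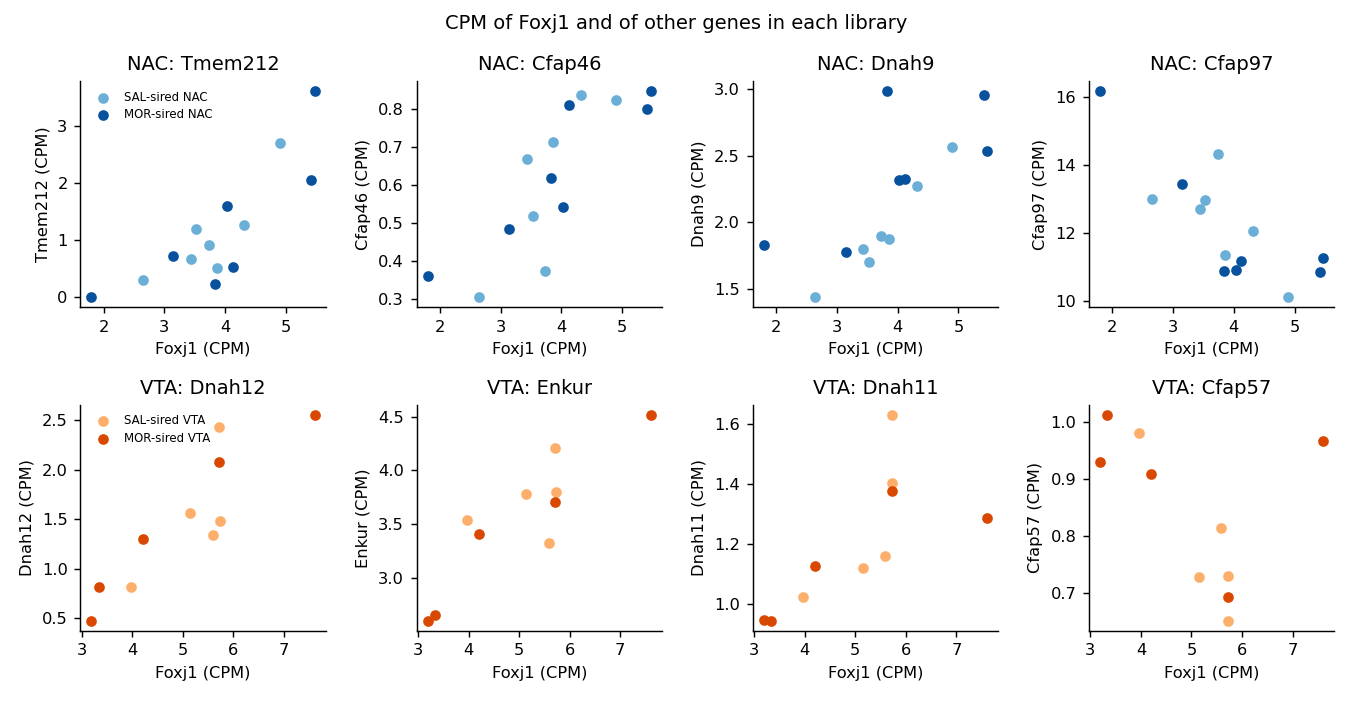
CPM of Foxj1 (horizontal) and of 8 other genes (vertical) in each NAC library (upper row, n = 14) and each VTA library (lower row, n = 10), coloured by sire group. In NAC r was 0.887 for Tmem212, 0.784 for Cfap46, 0.701 for Dnah9 and -0.839 for Cfap97, and in VTA it was 0.889 for Dnah12, 0.861 for Enkur, 0.714 for Dnah11 and -0.632 for Cfap57, none of which passed after adjustment.

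In VTA 0 of 56 cilia genes passed, and 0.0 percent of all 19922 genes passed. Coefficients were above 0 for 37 of 56, with a median of 0.26 against 0.016 over all genes, and at an unadjusted p under 0.05 there were 9 above 0 (16.1%, against 4.26 percent of all genes) and none below 0 (against 4.49 percent). Dnah12 had r = 0.889 and rho = 0.855 over 10 libraries (permutation p = 0.00072, adjusted p = 0.447), with 0.879 without MOR-sired VTA 1 and 5 and 0.871 without the libraries with Xist. Enkur had r = 0.861 and rho = 0.879 (0.698 without MOR-sired VTA 1 and 5), beside 0.132 over the NAC libraries. Within the SAL-sired and MOR-sired VTA libraries it had 0.384 and 0.974. Dnah11 had r = 0.714 and rho = 0.806 (0.767). Cfap100 (r = 0.784), Cfap141 (r = 0.731) and Cfap276 (r = 0.714) had 0.497, 0.585 and 0.653 without MOR-sired VTA 1 and 5. Without the libraries with Xist they had 0.682, 0.349 and 0.647. Within the SAL-sired libraries they had only -0.211, 0.237 and 0.207. The lowest coefficients were those of Cfap57 (r = -0.632), Cfap298 (r = -0.512) and Tekt5 (r = -0.481). Without MOR-sired VTA 1 and 5 these were -0.908, -0.225 and -0.736, and without the libraries with Xist -0.918, -0.433 and -0.303. Dnah5 had r = 0.0109 over the VTA libraries, with 0.713 within the SAL-sired and -0.403 within the MOR-sired ones. In NAC it had 0.648, with 0.838 and 0.604 within those groups. Whether the coefficients differ between the regions was not tested.

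The genes outside the list closest to Foxj1 were, in NAC, Cdhr4 (r = 0.936), Ankle1 (r = 0.922), Lama3 (r = 0.917), Exoc3l1 (r = 0.896) and Spata18 (r = 0.896), each with an adjusted p from 0.0781 to 0.0797. In VTA they were Fmn2 (r = 0.974), Aadat (r = 0.923), Ptch1 (r = 0.921), Ncr3lg1 (r = 0.915) and Farp1 (r = 0.902), with adjusted p from 0.324 to 0.447. Rfx2, a partner of Foxj1 in the ciliary programme, had r = 0.885 in NAC and 0.836 in VTA, and Rfx4 had 0.0825 and 0.890. None of these passed.

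The NAC punches also differed in striatal neuron markers. Ppp1r1b, the DARPP-32 gene of striatal projection neurons, was taken as a second reference after the data had been seen. Of 60 cilia genes, 8 passed with r above 0 and 13 with r below 0 (35.0% in all), against 15.3 percent and 15.0 percent of all genes, 30.3 percent in all, so the share that passed is near the background. Cfap20 (r = 0.893, rho = 0.916), Cfap298 (r = 0.870, rho = 0.855) and Dnah2 (r = 0.819, rho = 0.815) rose with Ppp1r1b, and Drc1 (r = -0.865, rho = -0.938), Rsph10b (r = -0.848, rho = -0.798) and Cfap90 (r = -0.796, rho = -0.925) fell with it. MOR-sired NAC 4, the library highest in striatal neuron markers, was also the lowest in Foxj1 and in Tmem212. MOR-sired NAC 2 and 4 had the most extreme Ppp1r1b. Without them 4 cilia genes passed with r above 0 and 8 with r below 0. The share of all genes that passed there is not given, so these counts have no background beside them. In that setting Cfap20 and Drc1 had r = 0.850 and r = -0.842. Cfap20, Cfap298 and Dnah2 were also among the genes that were lower in VTA than in NAC. So was Rsph10b, which fell with Ppp1r1b, while Drc1 and Cfap90 did not pass between regions. The part of neuron content in the regional difference was not tested. Against Th, the dopamine synthesis gene, 0 of 57 passed in VTA, where 0.718 percent of all genes did (0.637 percent above 0, 0.0803 percent below 0).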

How the data were processed

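RNA-seq of NAC and VTA punches was deposited as 1 table per region. Per the submitters' processing notes, Trim Galore, kallisto and DESeq2 were used; no source used here gives versions, the genome build or the annotation. The authors deposited estimated counts for each gene, named in the file names as TPM scaled to the library total, so a gene's length is already divided out. They were rounded to whole numbers for testing, and CPM was computed from them unrounded.

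The 79 genes, the marker and pathway lists and the tests were chosen with earlier results of these data known. Sire effects were tested per region, and regions and the difference of sire effects over all 24 libraries with 4 group means, with the quasi-likelihood test of edgeR 4.0.16 (R 4.3.3; TMM factors, filterByExpr by group, two-sided, Benjamini-Hochberg over all genes kept, called at adjusted p under 0.05). Intervals are 95%. The script was tested on simulated data. Correlations used log2 TMM-scaled CPM (prior count 2) and 100000 permutations, whose smallest p is 1e-05.

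Alternatives were DESeq2 1.42.0, limma 3.58.1 voom weights, RLE and upper-quartile scaling, no filter, a replicate block, a library number covariate, and leaving out libraries. Named genes are the 5 single genes and Cfap410, the most abundant and lowest-p members of each family, and the extremes of each test; others were named after their values were seen. Promoters come from RefSeq (GRCr8); 13 of the 79 genes had no promoter entry and are not analysed here for motifs.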

Additional observations from a re-analysis of the deposited data

Results flagged for a closer look

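In each group of 5 or 7 libraries, the highest and the lowest CPM of 37 named genes were compared with the rest of the group, which gave 148 group tests. In 8 of them 1 library stood far from the others. Chance gives about 1 in 20, so this number is near what chance gives, and the values below are given as a description.

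Tmem212 stood out in SAL-sired NAC 4 at 2.70 CPM, where the group median was 0.910 CPM, and in MOR-sired VTA 5 at 0.161 CPM, where the other 4 libraries were at 0, so that any value above 0 had to stand apart. MOR-sired VTA 5 was also the highest of its group for Cfap46, at 1.71 CPM with the next library at 1.18 CPM, and it is 1 of the 4 libraries with Xist. MOR-sired NAC 4, which had the lowest Foxj1 and the highest striatal neuron markers, was the highest of its group for Cfap36, at 199 CPM with the next at 153 CPM, and for Tekt1, at 7.38 CPM with the next at 4.71 CPM. Tekt1 was also high in SAL-sired VTA 1, at 9.50 CPM with the next at 7.44 CPM. Cfap100 was high in SAL-sired VTA 2, at 1.69 CPM with the next at 1.27 CPM, and Cfap276 in SAL-sired VTA 3, at 0.687 CPM with the next at 0.594 CPM.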

How the results depend on the processing

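For the 59 single-gene results, 1548 of 1629 alternatives kept direction and side of the threshold, 20 lost a call, 30 gained one and 31 changed sign. The sire counts stayed at 0 in both regions in every alternative run. In the regional comparison the other settings gave 13 to 20 higher and 25 to 35 lower genes, and leaving out 1 library gave 15 to 17 and 28 to 34.

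The difference of sire effects had 1 call with DESeq2 (Cfap410) and 0 in edgeR under every other setting. The count of genes that passed with r above 0 to Foxj1 in NAC was 0 to 17 when 1 library was left out. The count of 17 was without MOR-sired NAC 6, and the cause was not tested. The Ppp1r1b counts were 4 above and 8 below 0 without the 2 farthest libraries, which leaves fewer samples. No share of all genes is given for that setting. With the replicate block the sire counts were 0 and 0, the regional counts 17 higher and 25 lower, and the difference of sire effects 0. Same-numbered libraries correlated from -0.26 to 0.13 in their deviations. Differently numbered libraries were not compared, so these values cannot settle whether the numbers pair the samples.

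Sign changes for the NAC sire effect came with limma-voom (Tmem212 -0.069) and the library number covariate (Tmem212 -0.33), and for the VTA sire effect without the Xist libraries (Dynlrb2 0.15). In the SAL-sired contrast the sign changed for Cfap410, VTA against NAC (-0.0185), and for the other regional values it changed there too (Cfap69 0.031, Drc1 0.0023, Tekt2 0.15), in the MOR-sired contrast (Cfap57 0.20), with upper-quartile factors (Cfap57 0.083) and without the Xist libraries (Cfap57 0.056). When 1 library was left out, sire effects in NAC ran from -0.23 to 0.030 for Dynlrb2, -0.016 to 0.097 for Enkur, -0.031 to 0.18 for Foxj1 and -0.37 to 0.58 for Tmem212. In VTA they ran from -0.23 to 0.054 for Dynlrb2, -0.16 to 0.018 for Enkur and -0.23 to 0.067 for Foxj1, and the regional value of Cfap57 ran from -0.092 to 0.014. The causes were not tested. Depth limits the 15 genes kept in neither region, and counts near 0 limit Tmem212 in VTA.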

Other observations

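In the related pathway lists edgeR called 0 genes for the sire effect in any of the 5 lists in either region. At an unadjusted p under 0.05 in NAC there were 2 of 27 dynein arm assembly and light chain genes, both higher in MOR-sired offspring, among them the assembly factor Zmynd10 (edgeR adjusted p = 0.562). There were also 2 of 38 central pair and axoneme genes, Iqca1 and Spag8, and 1 of 31 primary cilium and BBSome genes, Tmem67, beside 6.18 percent of all genes. In VTA there were 2 of 30 intraflagellar transport genes, Ift140 (higher) and Wdr35 (lower), and 2 of 31 primary cilium and BBSome genes, Inpp5e (higher) and Pkd2 (lower), beside 5.31 percent of all genes. These shares are near the background.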
